A study of Mus musculus with 8 samples.

Results

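Imprinted genes are read mainly from 1 of the 2 parental copies, because the copies carry different DNA methylation at control regions set in the egg or the sperm. Many of them act on growth before and after birth, and their products pull in opposite directions: as a rule, genes read from the father's copy promote growth and genes read from the mother's copy restrain it. Several are expressed together in a network that is high in fetal and young tissue and falls as an animal stops growing, although some stay active in adult muscle and connective tissue stem cells. The 10 genes described here belong to that network and were taken as the rows of the deposited table whose names equal H19, Dlk1, Meg3, Rian, Peg3, Plagl1, Cdkn1c, Grb10, Mest or Ndn. All 10 were found, among 20681 rows in all. The data do not separate the parental copies, so each value is the sum of both.

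The study sequenced poly-A RNA from whole knee joints of mice, in 8 libraries. Of these, 4 carry the label Control and 4 the label Knockout, which refers to Loxl2, a collagen-crosslinking enzyme. The series text gives the genotype Acan-Cre;Loxl2 fl/fl for the set, in which Cre under the aggrecan gene removes Loxl2 from cells such as chondrocytes, and other cells of the joint keep it. Vehicle treatment is stated for the Control samples, whose library names read Vehicle_DMM_LOXL2wt, and those of the Knockout samples read KO_DMM_LOXL2ko. DMM is in the names of both groups and is not spelled out in the labels. The labels analysed here give no age, sex, time of sampling or treatment of the Knockout samples, and do not state whether each library came from a separate animal, so p-values measure the spread between these samples.

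Facts of the whole set that touch these genes are as follows. Values by library are given in the order of replicates 1 to 4, and ± after a log2 difference (labelled Knockout minus Control) is its standard error. Libraries held 13991000 to 17411617 reads on genes. Loxl2 itself was 282, 349, 1135 and 311 normalised reads in Control and 893, 1468, 960 and 1518 in libraries labelled Knockout, giving a log2 difference of 1.44 (limma adjusted p = 0.0294; exact permutation p = 0.0857), a call lost with edgeR, with DESeq2 and when Control replicate 1, 2 or 4 or Knockout replicate 2 or 4 was left out. The targeted gene thus went against the label, and the second group is called "labelled Knockout" throughout. Of the 12 chondrocyte markers listed, 11 were in the table, Matn1 being the exception, with a median log2 difference of 0.70 and 1 called higher. Their summed value was 3791 to 11624 in Control libraries and 9659 to 13290 in those labelled Knockout. Some marker lists of other tissues of a knee moved as well, where 11.6% of all genes tested were called in each direction. The 8 adipocyte and 8 endothelium markers had medians of -0.20 and -0.08 with none called. Of 9 satellite cell markers tested, 1 was called higher and 2 lower. The 12 fibroblast markers had a median log2 difference of 1.62 (9 called higher, none lower), with a summed value of 65787 to 189722 in Control and 208492 to 357800 in libraries labelled Knockout. The 18 skeletal muscle markers had a median of -0.68 (8 called lower, none higher), with summed values of 2577347 to 2794489 and 1262954 to 1764197. Of 8 macrophage markers 7 were called higher (median 1.36, sums 1362 to 3179 and 4868 to 6622) and of 10 osteoblast markers 4 (sums 3215 to 10304 and 9153 to 15377), while the 12 cell division markers had a median of 0.02 (sums 998 to 2262 and 1312 to 1890). The 8 erythroid markers had a median of -1.93 (sums 16884 to 99657 and 4075 to 42829) and the 8 neutrophil markers one of -0.65 (sums 1445 to 5808 and 1144 to 2707). In both lists 8 of 8 differences were below 0, but no marker was called and the sums overlapped. The part of these cells and tissues in the results below was not tested, and in whole tissue fewer cells of a type and less RNA per cell cannot be told apart.

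For each member called higher by limma, 1 promoter window is shown first, with its CG pairs in capitals, since CG pairs are the sites at which DNA is methylated. Methylation was not measured, and whether these windows lie in imprint control regions was not tested. The sequences are from RefSeq, build GRCm38.p6, and 8 of the 10 members matched its table of start sites. Each is the 250 bases before an annotated start, read 5′ to 3′ on the gene's own strand. The Meg3 window, for the upstream of its 2 annotated starts, lies at chr12:109540746-109540995 (plus strand), that of Rian at chr12:109603695-109603944 (plus), that of Mest, for the downstream pair of its annotated starts, at chr6:30737800-30738049 (plus), and that of Grb10, for its upstream start, at chr11:12037421-12037670 (minus). The bases that follow this Grb10 start were not matched in a GENCODE M21 transcript of the gene.
Meg3: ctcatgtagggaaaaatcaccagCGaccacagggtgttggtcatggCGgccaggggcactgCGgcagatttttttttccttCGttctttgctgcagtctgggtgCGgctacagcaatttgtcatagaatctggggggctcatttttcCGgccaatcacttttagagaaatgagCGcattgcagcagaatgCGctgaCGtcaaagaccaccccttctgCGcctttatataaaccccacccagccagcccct
Rian: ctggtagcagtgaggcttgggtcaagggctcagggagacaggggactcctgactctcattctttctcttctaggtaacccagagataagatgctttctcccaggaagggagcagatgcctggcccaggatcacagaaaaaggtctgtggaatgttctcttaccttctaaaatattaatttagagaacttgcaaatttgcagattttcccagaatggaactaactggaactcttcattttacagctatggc
Mest: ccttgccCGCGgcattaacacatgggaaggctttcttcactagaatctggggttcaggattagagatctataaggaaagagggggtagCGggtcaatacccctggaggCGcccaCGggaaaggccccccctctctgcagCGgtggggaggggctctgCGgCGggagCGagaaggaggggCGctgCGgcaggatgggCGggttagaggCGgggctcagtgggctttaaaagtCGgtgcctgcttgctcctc
Grb10: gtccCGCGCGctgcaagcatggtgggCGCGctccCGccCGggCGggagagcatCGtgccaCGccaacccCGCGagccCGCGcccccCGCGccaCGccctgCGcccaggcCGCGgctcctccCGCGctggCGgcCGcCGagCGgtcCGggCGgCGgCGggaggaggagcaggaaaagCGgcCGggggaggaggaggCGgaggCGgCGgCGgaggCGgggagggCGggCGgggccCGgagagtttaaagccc

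The count of CG pairs depended on the start chosen. The printed Grb10 window held 40, more than 98.7% of the 32851 windows in the table, but that of its other start, which was matched in GENCODE, held 8. The printed Meg3 window held 10 and that of its other start 0. The printed Mest window held 14, as did the one that overlaps it, and that of the upstream start held 7. The only window of Rian held 0, as did 7.87% of all windows, and the median of all windows was 6. Rian lies downstream of Meg3 on the same strand. Letters of 3 motifs were counted on both strands. The cyclic AMP response element TGACGTCA was in the printed Meg3 window at position -57 from the start and in that of Peg3 at -178, and in 1.55% of all windows. TATAAA was found in the printed Meg3 window close to the start, as a pair of overlapping matches on opposite strands, and in 12.4% of all windows. The core GGGGCCCC, part of the site described for the zinc finger protein PLAGL1, was in the Peg3 window and in 0.889% of all windows, and in no window printed above.

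Of the members, 4 contain miRNAs on their own strand, which are cut from the host transcript or its intron. The table gives 13 mature forms with 13 different seeds (bases 2 to 8, which pair with target RNAs), so none of them share one. The libraries measure the poly-A host transcripts and not these products. The forms below are shown because their hosts are the genes described next, with the seed in capitals (RefSeq, GRCm38.p6). The 2 forms of miR-675 lie in H19 (chr7, minus strand), the pair of miR-335 in Mest (chr6, plus), miR-770-5p in Meg3 and miR-370-3p in Rian (chr12, plus).
miR-675-5p: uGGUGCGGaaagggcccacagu
miR-675-3p: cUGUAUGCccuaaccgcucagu
miR-335-5p: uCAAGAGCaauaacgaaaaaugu
miR-335-3p: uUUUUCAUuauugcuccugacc
miR-770-5p: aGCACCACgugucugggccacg
miR-370-3p: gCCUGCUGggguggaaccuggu

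Of the 9 members tested, 8 had a difference above 0 and H19 one below 0. Meg3, Rian, Mest and Grb10 rose by 1.4 to 2.7 times. Ndn, Plagl1 and Cdkn1c had differences of like size that missed the threshold, Peg3 and H19 had 95% intervals that included 0, and Dlk1 was close to the limit of detection. The test took genes with 10 or more normalised reads in 4 or more libraries. Of the members 9 passed, each with its Control libraries alone, and Dlk1 did not. Of these 9, 4 were called higher and 0 lower by limma at an adjusted p under 0.05, where 23.2% of the 14949 genes tested were called, 11.6% higher and 11.6% lower. The members were chosen with earlier results of these data known, so setting these shares side by side is a description and no test. None of the members was lower at an unadjusted p under 0.05 by limma, nor called lower by edgeR or DESeq2. The median log2 difference of the 9 was 0.89 and that of all genes tested 0.00. The values did not overlap between the groups for 4 members, all higher in the libraries labelled Knockout, as for 11.7% of all genes in that direction and 13.4% in the other. The count of calls leans on single libraries: only Meg3 was called without Control replicate 4, without Knockout replicate 1 or without Knockout replicate 4. Calls over all genes fell too, from 3461 to 2194, 2417 and 1751 in these fits.

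Other count models gave more calls. On the whole reads recovered from the deposited values, edgeR called Plagl1 beside those 4 (11.3% of all genes called higher), and DESeq2 called Plagl1, Ndn and Cdkn1c beside them (14.3% called higher). Another scaling moved the calls too. With scaling on genes outside the muscle, erythroid and neutrophil markers and the 50 highest genes, the median of all genes moved to 0.15. There 7 members were called higher, as were 2719 of the 14949 genes tested. Of all calls 77.8% were higher, against 1732 of 3461 under the deposited scaling. Scaling on other genes shifts all genes of a library alike, so differences relative to the median of all genes had to stay nearly the same. They were 1.04 for Meg3, 1.45 for Rian and -0.60 for H19, and are no test of the scaling.

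**Figure D1:**
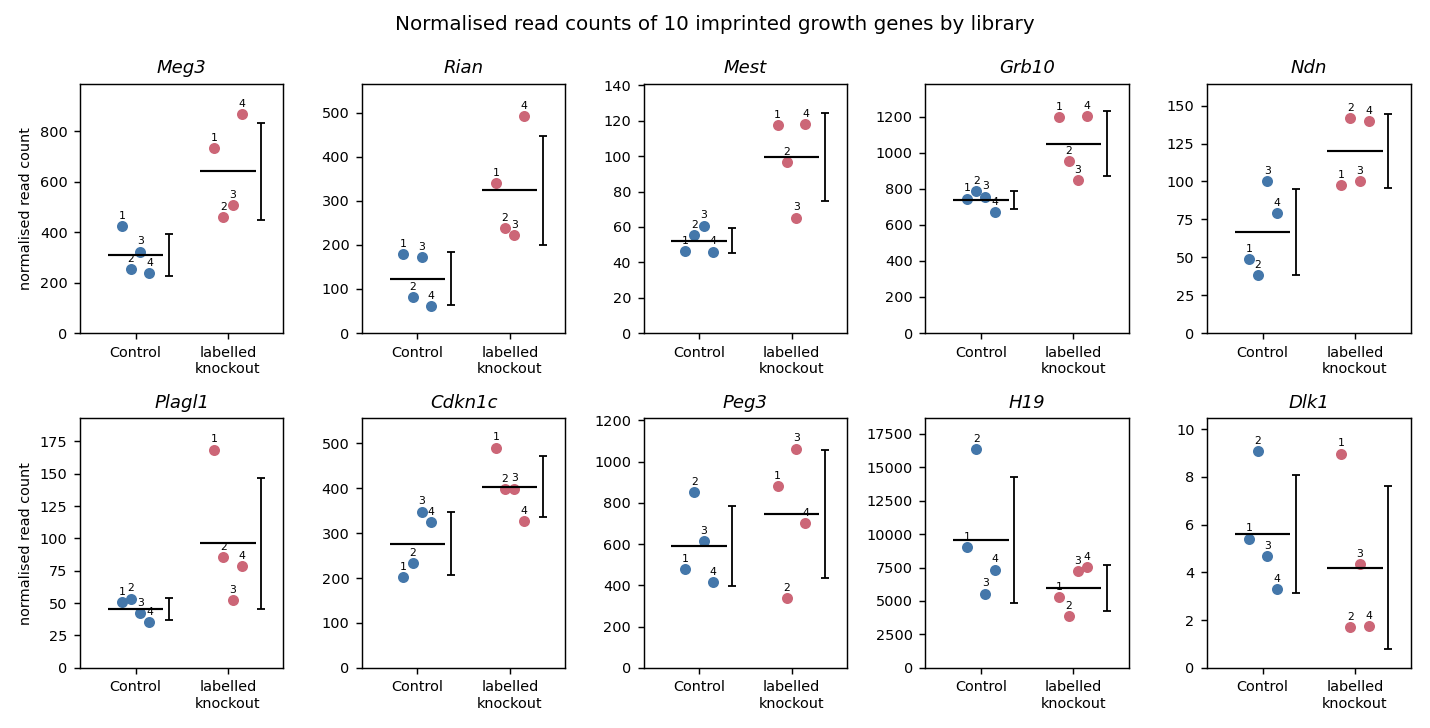
Normalised read counts (vertical axes, linear from 0, each with its own range) of the 10 members in the 4 Control libraries (blue) and the 4 labelled Knockout (red); digits give the replicate, horizontal lines the mean and vertical bars the SD (n = 4). Meg3, Rian, Mest and Grb10 are the panels in which the groups do not overlap, and Control replicate 2 stands highest for H19 at 16348.

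Meg3 and Rian are long RNAs that code for no protein and are read from the mother's copy of an imprinted region of chromosome 12. Meg3 (109541001 to 109571726, plus strand, mm10) is known to bind the chromatin-silencing complex PRC2 and to restrain growth. It had 424, 253, 322 and 237 normalised reads in Control and 734, 459, 507 and 866 in libraries labelled Knockout. Every library labelled Knockout lay above every Control library, though Knockout replicate 2 passed Control replicate 1 by little. Its mean rose from 309 ± 85.1 to 642 ± 192 (SD, n = 4 each), or 1.04 ± 0.24 on the log2 scale (limma adjusted p = 0.0148; exact two-sided permutation p = 0.0286, the smallest that 70 assignments can give). Leaving out any 1 of the 8 libraries did not end the call.

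Rian (109603940 to 109661716, plus strand) is the host of many small nucleolar RNAs. It had 180, 81.8, 172 and 61.3 normalised reads in Control and 340, 239, 223 and 493 in libraries labelled Knockout. Control replicates 2 and 4 were low, Knockout replicate 4 was high, and the groups did not overlap. This gave 1.45 ± 0.38 on the log2 scale, the largest among the members (limma adjusted p = 0.0227; exact permutation p = 0.0286). The call was lost when Control replicate 2, Control replicate 4, Knockout replicate 1 or Knockout replicate 4 was left out (limma adjusted p up to 0.0683).

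Rian followed Meg3 from library to library. After the group means were subtracted, their log2 values had a Pearson r of 0.905 over the 8 libraries and a Spearman rho of 0.833, with exact p-values of 0.0104 and 0.0208 over the 576 permutations within groups. Among the 36 pairs of tested members these were 0.219 and 0.375 after Benjamini-Hochberg adjustment, and 0 pairs passed 0.05. Without the 2 libraries farthest in Meg3, Control replicate 1 and Knockout replicate 4, r was 0.813. Grb10 and Mest had the next highest r, 0.898, and the highest rho of the pairs, 0.952 (exact permutation p = 0.0122 and 0.00521, adjusted 0.219 and 0.188; r = 0.748 without Knockout replicates 3 and 4). The median r of the 36 pairs was 0.12 and 23 were above 0. Rian per Meg3 read was 0.385 ± 0.120 in Control and 0.498 ± 0.0580 in libraries labelled Knockout, and the ratios overlapped (exact permutation p = 0.143, adjusted over 3 ratios 0.429).

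**Figure D2:**
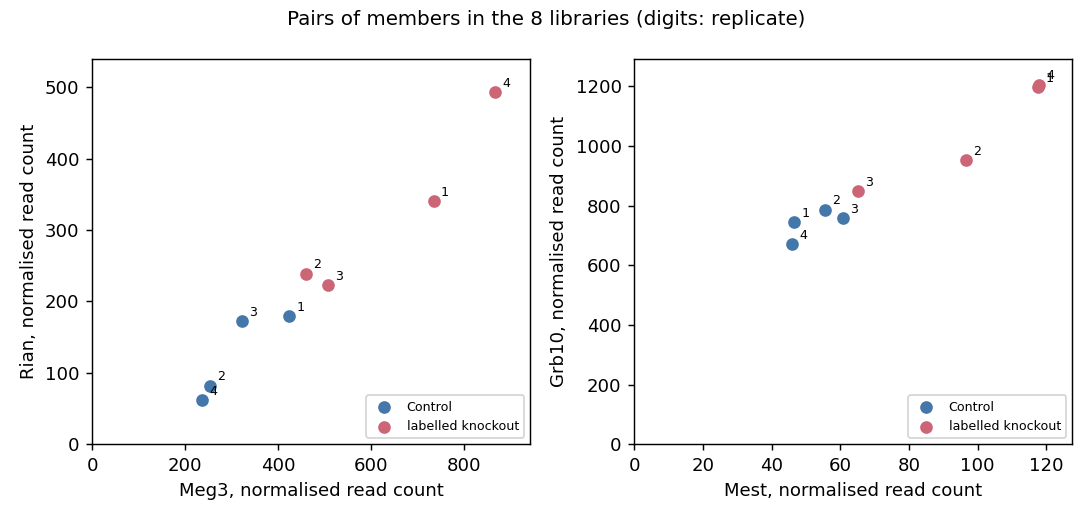
Normalised read count of Rian against Meg3 (left) and of Grb10 against Mest (right), 1 point per library (digits: replicate), Control blue and labelled Knockout red, all axes linear from 0. In both panels the libraries labelled Knockout lie further right and higher, up to 866 for Meg3 and 493 for Rian in Knockout replicate 4.

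Their neighbours on chromosome 12 were low, and all of these were picked for their position after their values had been seen. Mirg, the miRNA host that follows Rian, had 3.29 to 16.2 normalised reads in Control and 15.4 to 26.1 in libraries labelled Knockout, or 1.26 ± 0.48 on the log2 scale (limma adjusted p = 0.0820). Dio3, which encodes the enzyme that inactivates thyroid hormone, had 3.24 to 7.67 and 10.9 to 21.1 (log2 1.35 ± 0.39, limma adjusted p = 0.0326). Begain, at the other end, had 9.08 to 27.1 and 30.4 to 54.6 (log2 1.18 ± 0.36, limma adjusted p = 0.0396). Mirg, Dio3 and Begain did not reach the count filter with their Control libraries alone and entered the test through the libraries labelled Knockout, so a difference was built into their entry. Leaving out 1 library ended the call of Dio3 for 6 of the 8 libraries, and that of Begain likewise. Rtl1, read from the father's copy opposite its miRNA-bearing antisense RNA, had at most 4.67 normalised reads in any library.

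Dlk1 (109452823 to 109463336, plus strand), at the same locus, encodes a transmembrane relative of the Notch ligands that holds back fat cell differentiation, and is read from the father's copy. It had 5, 9, 5 and 3 reads in Control and 9, 2, 4 and 2 in libraries labelled Knockout. It did not enter the test, the groups overlapped, and a difference was not detectable at this depth (exact permutation p = 0.343 on log2(normalised value + 1)). Per kilobase of exon the median level of Dlk1 was 0.891 in Control and 0.540 in libraries labelled Knockout, against 15.9 and 34.3 for Meg3.

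**Figure D3:**
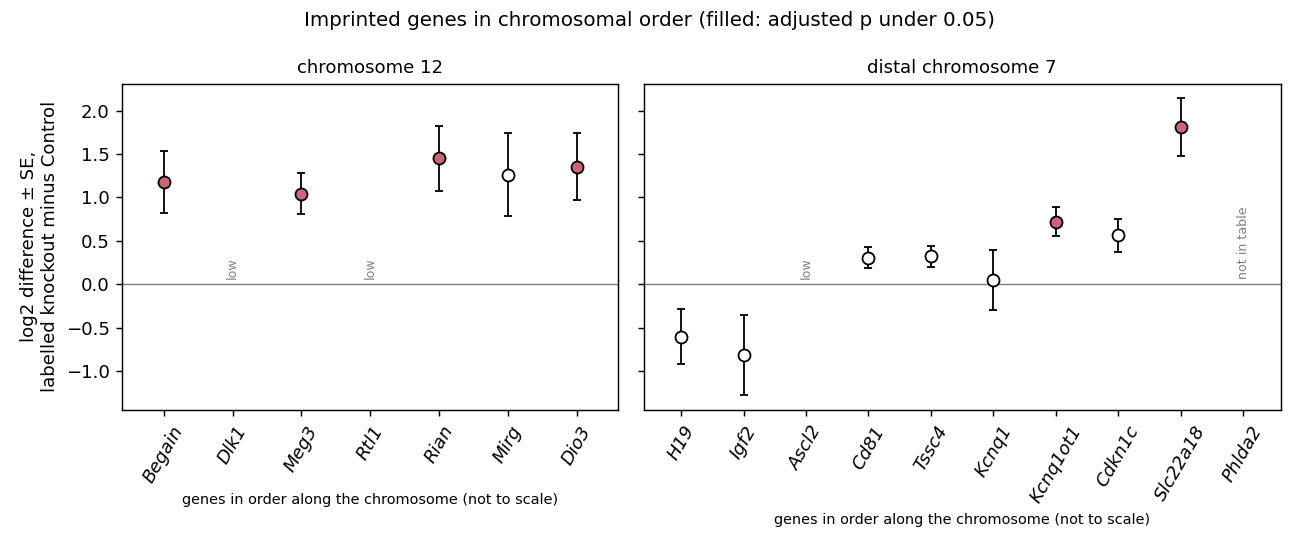
Log2 difference (vertical axis, labelled Knockout minus Control, ± SE of the limma fit, n = 4 per group) of imprinted genes in their order along chromosome 12 (left) and distal chromosome 7 (right); filled points have an adjusted p under 0.05, "low" marks genes under the count filter, and distances are not to scale. On chromosome 12 the 5 tested genes lie between 1.04 and 1.45, and on chromosome 7 H19 and Igf2 lie below 0 and Slc22a18 highest at 1.81. Mirg, Dio3, Begain and Slc22a18 reached the count filter only with the libraries labelled Knockout, so a difference was built into their entry.

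Mest and Grb10 code for proteins that act inside the cell. Mest (chromosome 6, 30723547 to 30748465, plus strand) encodes an enzyme of the alpha/beta hydrolase fold that is read from the father's copy and is linked to fat tissue expansion. It had 46.5, 55.5, 60.8 and 46.0 normalised reads in Control and 118, 96.6, 65.2 and 118 in libraries labelled Knockout. The Control libraries were close together, and Knockout replicate 3 stood just above them. The mean went from 52.2 ± 7.19 to 99.4 ± 24.8, or 0.89 ± 0.22 on the log2 scale (limma adjusted p = 0.0206; exact permutation p = 0.0286). The call was lost without Control replicate 4 or Knockout replicate 1 or 4 (limma adjusted p up to 0.0655) and under quantile normalisation (0.0719). Copg2, which overlaps the end of Mest on the opposite strand, differed by -0.04 ± 0.12 (limma adjusted p = 0.813), and the use of strand in counting is not stated.

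Grb10 (chromosome 11, 11930508 to 12038683, minus strand) encodes an adaptor protein that binds the activated insulin and IGF1 receptors and dampens their signal. It had 745, 786, 757 and 670 normalised reads in Control and 1197, 953, 848 and 1205 in libraries labelled Knockout. The groups did not overlap, and the spread was wider in the libraries labelled Knockout. The mean went from 740 ± 49.4 to 1051 ± 179, or 0.49 ± 0.12 on the log2 scale (limma adjusted p = 0.0207; exact permutation p = 0.0286). The change was small, and the call was lost without Control replicate 4 or Knockout replicate 1 or 4 (limma adjusted p up to 0.0617).

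Plagl1, Ndn and Cdkn1c all slow the cell cycle and had adjusted p-values just above 0.05. Plagl1 (chromosome 10, 13060504 to 13131694, plus strand), a zinc finger transcription factor that regulates other members of the network, had 50.8, 53.5, 42.1 and 35.1 normalised reads in Control and 169, 85.5, 52.2 and 78.3 in libraries labelled Knockout. Knockout replicate 1 was far above the rest and Knockout replicate 3 lay within the Control range. This gave 0.95 ± 0.33 on the log2 scale and a 95% interval of 0.23 to 1.68 (limma adjusted p = 0.0589, exact permutation p = 0.0571). Without Knockout replicate 3 it was called (limma adjusted p = 0.0211). Without any other library it was not (limma adjusted p up to 0.133).

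Ndn (chromosome 7, 62346569 to 62350262, plus strand) encodes necdin, a growth suppressor of the MAGE family that binds E2F1 and p53. It had 48.7, 38.4, 100 and 78.9 normalised reads in Control and 97.7, 142, 100 and 140 in libraries labelled Knockout. Control replicate 3 reached the lower libraries labelled Knockout, and the groups overlapped there. This gave 0.92 ± 0.30 on the log2 scale and a 95% interval of 0.25 to 1.58 (limma adjusted p = 0.0502; exact permutation p = 0.0571). It was called without Control replicate 3 (difference 1.14, limma adjusted p = 0.0195). Leaving out any other library gave no call (limma adjusted p up to 0.13).

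Cdkn1c (chromosome 7, 143458339 to 143461050, minus strand) encodes p57, an inhibitor of cyclin-dependent kinases read from the mother's copy. It had 202, 233, 348 and 324 normalised reads in Control and 491, 399, 399 and 327 in libraries labelled Knockout. Only Knockout replicate 4 fell within the Control range. This gave 0.56 ± 0.19 on the log2 scale and a 95% interval of 0.14 to 0.99 (limma adjusted p = 0.0572, exact permutation p = 0.0571). It was called without Control replicate 3 (0.68, limma adjusted p = 0.0310), but without no other single library (limma adjusted p up to 0.143).

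**Figure D4:**
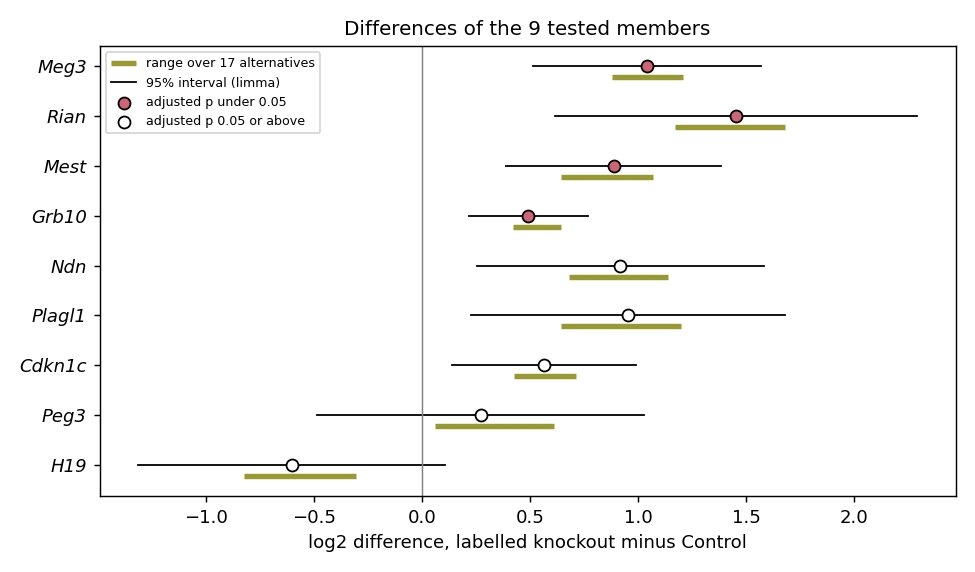
Log2 difference (horizontal axis, labelled Knockout minus Control) of the 9 tested members with the 95% interval of the limma fit (black line) and the range over 17 alternative settings (olive bar); filled points have an adjusted p under 0.05. All intervals of Meg3, Rian, Mest, Grb10, Ndn, Plagl1 and Cdkn1c lie above 0, and those of Peg3 (-0.48 to 1.03) and H19 (-1.31 to 0.11) include it.

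H19 and Peg3 were tested and not called, and their intervals are wide. H19 (chromosome 7, 142575529 to 142578143, minus strand) is a non-coding RNA read from the mother's copy, hosts miR-675, and is known to stay abundant in adult skeletal muscle. Its values were 9037, 16348, 5548 and 7352 normalised reads in Control and 5314, 3895, 7250 and 7557 in libraries labelled Knockout. Control replicates 1 and 2 were high, Knockout replicate 2 was lowest, and the other libraries of both groups lay within one range. This gave -0.60 ± 0.32 on the log2 scale and a 95% interval of -1.31 to 0.11 (limma adjusted p = 0.193; exact permutation p = 0.171). Without Control replicate 2 it was -0.31, under quantile normalisation -0.32, and without Control replicate 3 -0.82 (limma adjusted p = 0.0778). The skeletal muscle markers, of which 18 of 18 had a difference below 0 and 8 were called lower, moved in the direction of H19, and their part in its level was not tested.

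Peg3 (chromosome 7, 6703892 to 6730431, minus strand), a large zinc finger protein read from the father's copy and a marker of several adult stem cells, varied from library to library. It had 478, 854, 616 and 416 normalised reads in Control and 882, 339, 1064 and 702 in libraries labelled Knockout. Both the lowest and the highest value were in the group labelled Knockout. This gave 0.27 ± 0.34 on the log2 scale and a 95% interval of -0.48 to 1.03 (limma adjusted p = 0.589; exact permutation p = 0.514), and it ran from 0.06 without Knockout replicate 3 to 0.61 without Knockout replicate 2.

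Levels were set side by side per kilobase of annotated exon, merged over all annotated transcripts of a gene. This length was 18.1 kb for Meg3 and 18.2 kb for Rian, but 2.04 kb for Cdkn1c. Which transcripts were present was not tested, so the order depends on the length taken. In the Control libraries the order by median normalised reads per kilobase was H19 at 3331, Cdkn1c at 137, Grb10 at 82.6, Peg3 at 41.1, Ndn at 17.3, Meg3 at 15.9, Mest at 12.9, Rian at 6.96, Plagl1 at 5.94 and Dlk1 at 0.891. Each of the first 4 was above the next without overlap between libraries, whereas the ranges of Ndn, Meg3 and Mest overlapped, as did those of Rian and Plagl1. In the libraries labelled Knockout the order was H19 at 2554, Cdkn1c at 196, Grb10 at 118, Peg3 at 59.4, Meg3 at 34.3, Ndn at 32.5, Mest at 27.2, Rian at 15.9, Plagl1 at 10.5 and Dlk1 at 0.540. There, from Peg3 down to Plagl1, the range of each gene overlapped that of the next.

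The partner that H19 is read beside was scarce. Igf2 (chromosome 7, 142650766 to 142666816, minus strand), the fetal growth factor read from the father's copy, had 9.73, 36.3, 15.0 and 13.1 normalised reads in Control and 5.98, 7.70, 8.70 and 15.0 in libraries labelled Knockout. The groups overlapped, with Control replicate 2 highest as it was for H19. This gave -0.82 ± 0.46 on the log2 scale (limma adjusted p = 0.221). Igf2r, the receptor that removes IGF2, had 1855 ± 49.6 and 1633 ± 171 normalised reads (log2 -0.19 ± 0.09, limma adjusted p = 0.144).

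Among other imprinted genes the directions were mixed. Of 44 listed, 39 were in the table and 33 tested, of which 7 were called higher and 4 lower by limma, with a median log2 difference of -0.04. The 33 hold 11 calls, against 23.2% of all genes. Of those called higher, Slc22a18, Dio3 and Begain did not reach the count filter with their Control libraries alone. A difference was thus built into their entry, and they cannot speak for a direction. Slc22a18, a transporter gene beside Cdkn1c, had 7 to 9 reads in each Control library and 18.5 to 44.9 normalised reads in the others, and entered the test only through the group labelled Knockout (log2 1.81 ± 0.33, limma adjusted p = 0.00748). Slc38a4, which encodes an amino acid transporter, went from 757 ± 292 to 292 ± 83.0, the largest fall among the 4 called lower (log2 -1.34 ± 0.27, limma adjusted p = 0.0101).

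Kcnq1ot1, the non-coding RNA that silences the father's copy of the Cdkn1c region, rose from 73.8 ± 9.46 to 122 ± 17.1 (log2 0.72 ± 0.17, limma adjusted p = 0.0154), a call lost under quantile normalisation (0.49, adjusted p = 0.0727). It runs opposite Kcnq1, whose own log2 difference was 0.05 ± 0.35, and the use of strand is not stated. Sgce, the epsilon-sarcoglycan gene, rose from 157 ± 36.3 to 254 ± 31.1 (log2 0.71 ± 0.17, limma adjusted p = 0.0179). Asb4, which encodes a substrate adaptor for ubiquitin ligases, fell from 258 ± 62.7 to 150 ± 32.2 (log2 -0.78 ± 0.21, limma adjusted p = 0.0279), a call lost when Control replicate 1, Control replicate 2 or Knockout replicate 4 was left out, and under scaling on other genes. The count of 11 calls was 4 without Control replicate 2 or Knockout replicate 4, and 5 to 7 when Control replicate 1, Control replicate 4, Knockout replicate 1 or Knockout replicate 2 was left out. Calls over all genes fell too, from 3461 to 1887 without Control replicate 2 and 1751 without Knockout replicate 4.

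The insulin and IGF pathway on which Grb10 and Igf2 act was also mixed. Of 26 listed partners of growth signalling and the cell cycle 25 were tested, 6 called higher and 3 lower, where 11.6% of all genes were called higher and 11.6% lower, with a median difference of 0.09. Igf1, the postnatal growth factor, rose from 423 ± 235 to 1829 ± 586 (log2 2.22 ± 0.34, limma adjusted p = 0.00462), Cdk4, the kinase of G1 entry, from 529 ± 31.6 to 711 ± 14.9 (log2 0.43 ± 0.08, limma adjusted p = 0.00749) and Akt1 from 1258 ± 42.9 to 1725 ± 161 (log2 0.45 ± 0.08, limma adjusted p = 0.00784). Irs2, an adaptor of the insulin receptor, fell from 447 ± 52.0 to 261 ± 40.1 (log2 -0.78 ± 0.14, limma adjusted p = 0.00707). These 4 kept their calls whichever library was left out.

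By a likeness rule, the genes outside the list whose log2 values most resembled Meg3 over the 8 libraries, group means subtracted, were Tgfa (r = 0.983), Rpn2 (0.982), Dgka (0.976), Naglu (0.969) and Ydjc (0.967). For H19 they were Dazap2 (r = 0.974), Cpsf7 (0.970), Padi1 (0.966), Gm37435 (0.955) and Ddx55 (0.946). With 14940 candidate genes and 8 libraries such values are a description and no test.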

How the data were processed

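The deposited table holds 1 value per gene and library, a normalised signal that the authors made, per the labels and series text, from reads aligned to mm10, counted with featureCounts and normalised in DESeq2. HISAT2 is named in the submitters' processing notes. Versions, annotation, strand setting and filter settings are not given in the sources used here. In each column 100% of values were whole multiples of the smallest positive one (within 0.01), which gave back the reads. In Control replicate 2 and Knockout replicate 1 that step was 1.01 and 0.997, so there it says little. Recomputed size factors were 0.913 to 1.17. No 2 libraries of a group agreed within counting error (chi-square per degree of freedom 23.5 to 59.7).

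Genes reaching 10 in 4 or more of the 8 libraries were kept (14949), and log2(value + 1) was fitted by group with limma 3.58.1 (lmFit, eBayes with trend), with Benjamini-Hochberg adjustment across all genes tested. Calls use an adjusted p below 0.05. Fold changes are on the log2(value + 1) scale. Single genes, on log2(value + 1), and ratios, untransformed, were compared by exact two-sided permutation over 70 assignments. Alternatives were pseudocounts of 0.1 and 10, no filter, 3 scalings, edgeR 4.0.16 and DESeq2 1.42.0 on the recovered reads, a replicate block, and leaving out each library. The limma step was tested on simulated data.

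The members and lists were chosen with earlier results of these data known. Named were all members, Loxl2, Igf2, Igf2r and up to 5 called genes of smallest p from each list of imprinted, growth or imprint maintenance genes; Mirg, Begain, Dio3, Rtl1, Copg2 and Kcnq1 were added after their values were seen; marker lists are given by counts. One gene that the rule names is not reported here. Likeness was Pearson r after subtracting group means. Coordinates and exon lengths are from GENCODE M21 (mm10), sequences from RefSeq (GRCm38.p6).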

Additional observations from a re-analysis of the deposited data

Results flagged for a closer look

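Within groups of 4, 3 values stood apart from the other 3 by more than Dixon's 95% criterion on normalised counts. They were found among 66 groups of values, and chance gives about 1 in 20. None was a value of the 10 members. Loxl2 was 1135 in Control replicate 3, against 282 to 349 in the other Control libraries. Igf1 was 2703 in Knockout replicate 1, against 1440 to 1588 in the other libraries labelled Knockout. Irs2 was 201 in Knockout replicate 2, against 277 to 284.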

How the results depend on the processing

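Over 17 alternatives each, the 9 tested members kept their direction, and Meg3 kept its call in all of them, with adjusted p-values of 0.000332 to 0.0446. The count of called genes, 3461, was 1751 to 3841 when 1 library was left out, and that of called members, 4, was 1 to 6. Members called were 7 under scaling on other genes and 7 with DESeq2, all higher. Of all genes tested, 2719 of 14949 and 14.3% were called higher there. Of the other imprinted genes, 11 called, 7 were called under quantile normalisation and 4 to 11 without 1 library; the growth signalling partners gave 7 to 11, against 9. The causes were not tested. Replicate numbers are not stated to pair animals, and deviations of same-numbered libraries correlated at 0.213, -0.118, -0.233 and -0.063, so only number 1 matched best with itself. With the replicate block 2018 genes were called, 1 of them a member (Meg3), and 4 other imprinted genes. Calls lost there were those of Mest, Grb10, Rian, Loxl2, Sgce, Dnmt3a, Begain and Dio3 (limma adjusted p = 0.0607, 0.0555, 0.0510, 0.0513, 0.0522, 0.117, 0.0766 and 0.0719). Dnmt3a, Begain and Dio3 also lost theirs under quantile normalisation (0.262, 0.0884 and 0.0949). Depth limits Dlk1, Igf2, Mirg, Dio3, Begain and Slc22a18, which had single-digit read counts in 1 or more libraries.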

Other observations

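Genes known, as background, to fall with the imprinted network as a young animal stops growing were listed beside it. Of 12 such genes 11 were in the table and 8 tested, 3 of them called higher by limma and 0 lower, where 11.6% of all genes were called in each direction, with a median log2 difference of 0.80; the list shares its 3 Igf2bp genes with the growth signalling list. Mdk, the growth factor midkine, rose from 48.0 ± 17.7 to 158 ± 18.2 normalised reads (log2 difference 1.76, SE 0.25, limma adjusted p = 0.00399). Sox4, a transcription factor of progenitor cells, rose from 63.9 ± 13.3 to 135 ± 16.3 (1.08, SE 0.18, adjusted p = 0.0061), and Smoc2, a matricellular protein gene, from 657 ± 209 to 1568 ± 348 (1.29, SE 0.25, adjusted p = 0.00875). Ezh2, the PRC2 methyltransferase gene, had a difference of 0.14 (SE 0.16, limma adjusted p = 0.534).

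Of 13 genes that set or keep imprints, 11 were tested and 1 was called, where 23.2% of all genes tested were called and 11.6% were called lower. It was Dnmt3a, a DNA methyltransferase gene, which fell from 1305 ± 93.7 to 1088 ± 59.1 (-0.26, SE 0.08, limma adjusted p = 0.0447). The call was lost when replicate 1, 2 or 4 of either group was left out, under 3 scalings, with no filter, with edgeR and with the replicate block (limma adjusted p = 0.117). Dnmt1 (0.16, SE 0.11), Trim28 (-0.08, SE 0.08) and Zfp57 (0.40, SE 0.28) were not called (limma adjusted p = 0.324, 0.527 and 0.323); these 3 and Ezh2 were picked after their values were seen.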
